A study of Mus musculus with 12 samples.

Results

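The array labelled blood macrophage high from tumor-bearing mice carried neutrophil and monocyte genes. The array labelled blood macrophage low from the same kind of mice carried natural killer (NK) cell genes and B cell genes. B cell genes were also present on the high array, at lower levels. The 2 arrays hold flow-sorted blood populations, measured with 1 array each, and were chosen by their titles. Thus 2 of the 12 arrays of the series are compared here. The receptors Csf3r and Cxcr2, by which neutrophils answer G-CSF and chemokines, had log2 values of 13.33 and 13.43 on the high array, against 6.15 and 5.89 on the low array. The NK receptors Ncr1 and Klra8 had log2 values of 6.49 and 6.70 on the high array, against 12.51 and 13.24 on the low array.

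The high and the low array came from C57BL/6 mice implanted with GL261 cells, a mouse glioma line, at an age of 7 weeks and killed 2 weeks later. Blood macrophage high and low from normal C57BL/6 mice, also labelled with an age of 7 weeks, were set beside them, again with 1 array each. The labels repeat the implantation text for the normal arrays, which were taken as normal from their stated disease state. Neither the labels nor the study's methods state how many mice were pooled, or what high and low refer to in blood. In the brain, the study sorted macrophages as CD11b+ cells with high CD45 and microglia as CD11b+ cells with low CD45. By their titles, the other 8 arrays hold sorted brain cells and Gr1+ and Gr1- blood cells. Gr1 is a surface epitope of neutrophils and of many monocytes. With 1 array per condition there is no replicate error, no test could be made and no p-value is given.

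Blood leukocytes fall into lineages that use separate sets of genes. Neutrophils are short-lived phagocytes filled with granules, and monocytes are phagocytes that circulate in a classical, Ly6C-high form and a nonclassical, patrolling form. NK cells are lymphocytes that kill infected or transformed cells with perforin and granzymes and are steered by activating and inhibitory receptors. Mature NK cells of the mouse also carry CD11b, the product of Itgam, on their surface. Itgam was above background on both arrays here, at 12.74 on the high array and 11.85 on the low array.

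Background was defined per array by 1027 olfactory receptor genes, which serve smell in the nose, as the level under which 95% of them lay. It was 9.02 on the high array and 9.25 on the low array, in log2 units. On the high array 6966 genes (34.9%) lay above it, and on the low array 6205 genes (31.1%). Above background on both were 5199 genes, on the high array alone 1767 and on the low array alone 1006. The normal blood macrophage high array stood apart from the rest of the series, with the highest background, 10.09, and 2227 genes (11.2%) above it. On the normal blood macrophage low array background was 9.41 and 5238 genes (26.3%) lay above it.

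Between the high and the low array, 1339 of 19938 genes (6.72%) were at least 2-fold higher and 1031 (5.17%) at least 2-fold lower. These shares are the background for the counts of list members that follow. The counts take in members below the background level on both arrays. Among the 7972 genes with signal above background on the high array, the low array or both, 1106 (13.9%) were 2-fold higher and 477 (5.98%) 2-fold lower. The median log2 difference of all genes was -0.21 as deposited and -0.04, -0.06 and 0.00 after the arrays were centred on their medians or put through quantile or cyclic loess normalization. The split moved with the scaling: of the genes past 2-fold, 56.5% were higher as deposited, 70.1% after centring, 68.2% after quantile and 71.7% after loess normalization. The olfactory receptor genes had a median difference of -0.20 with an SD of 0.54, and 5 of them were 2-fold higher (0.487%) and 42 lower (4.09%). This SD is a yardstick of scatter between 2 arrays and not a replicate error.

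Most of the large differences were between signal on 1 array and background on the other. Of the 1106 genes that were higher, 784 were above background on the high array alone and 322 on both. Of the 477 that were lower, 317 were above background on the low array alone and 160 on both. For a gene above background on 1 array, the deposited difference depends on an uninformative low value, so a bound is given, which sets the bright value against the background level of the dim array. The bound carries no error either.

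**Figure D1:**
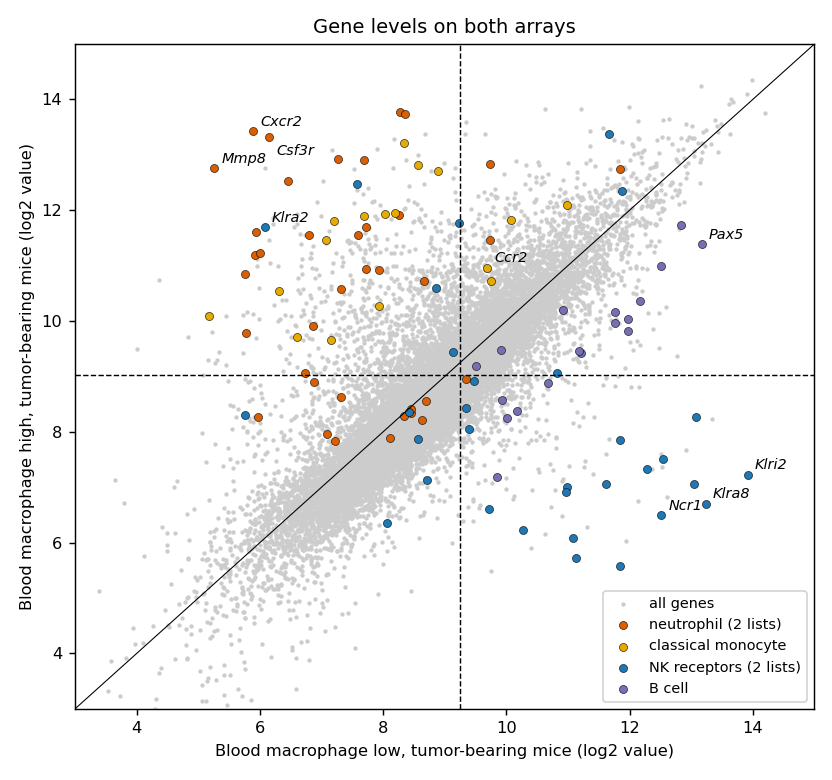
Log2 value of each of 19938 genes on the blood macrophage high array (vertical axis) and the blood macrophage low array (horizontal axis) of tumor-bearing mice, 1 array each, with members of 6 marker lists in color and dashed lines at the background level of each array, 9.02 and 9.25. Neutrophil and classical monocyte genes such as Cxcr2 and Mmp8 lie in the upper left, NK receptor genes such as Klri2 and Klra8 in the lower right, and B cell genes mostly under the diagonal.

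The 20 genes with the largest differences in favor of the high array were led by neutrophil genes. Their differences ran from 5.22 to 7.54 on the log2 scale, and none of the 20 was above background on the low array. Cxcr2, the receptor that draws neutrophils along CXC chemokines, had 13.43 on the high array and 5.89 on the low array, a difference of 7.54 and at least an 18.1-fold one. Mmp8, the neutrophil collagenase, had 12.76 on the high array and 5.26 on the low array, at least 11.4-fold apart. Csf3r, the receptor for G-CSF, had 13.33 on the high array and 6.15 on the low array, at least 16.8-fold apart. In this series Csf3r was not limited to neutrophil samples: it had 11.24 on the normal brain microglia array, where Cxcr2 had 6.81. The calcium-binding alarmin subunits S100a8 and S100a9 had 13.78 and 13.73 on the high array, against 8.28 and 8.36 on the low array, and S100a9 was at least 22.3-fold apart. Lcn2, which withholds iron from bacteria, had 12.53 on the high array and 6.45 on the low array. Each of these was above background on the high array and below it on the low array.

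The rest of the 20 included more than neutrophil genes. Slc40a1, the iron exporter ferroportin, had 12.76 on the high array and 6.08 on the low array. Il1rn and Il1r2, the antagonist and the decoy receptor of interleukin-1, had 10.73 and 11.19 on the high array, against 4.36 and 5.91 on the low array. Clec7a and Clec4e, receptors for fungal and mycobacterial sugars or lipids, had 12.53 and 11.22 on the high array, against 7.03 and 6.00 on the low array. Nlrp3, the inflammasome sensor, had 11.46 and C5ar1, the receptor for complement C5a, 11.93 on the high array, against 6.15 and 6.60 on the low array. Il1f9, Mmp9, Hp, Cd300ld, Klra2, Tnfaip2 and Defb39 complete the set. Defb39, a beta-defensin gene, had the lowest bound: its 9.50 on the high array was at least 1.19-fold above the low array's background, although its deposited difference was 5.50.

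The 20 genes with the largest differences in favor of the low array were genes of NK cells and of killing. Their differences ran from -6.69 to -4.57, and none of the 20 was above background on the high array. Klri2, a lectin-like receptor that pairs with Klre1, had 7.23 on the high array and 13.92 on the low array, at least 29.8-fold apart. Klra8, which encodes the activating receptor Ly49H of C57BL/6 mice, had 6.70 on the high array and 13.24 on the low array, at least 18.6-fold apart. Ncr1, the receptor NKp46, had 6.49 on the high array and 12.51 on the low array, at least 11.3-fold apart. Klrb1c, which encodes the NK1.1 antigen, had 7.06 on the high array and 13.04 on the low array. The T-box factors Eomes and Tbx21, which direct NK cell development, had 6.03 and 6.74 on the high array, against 11.94 and 12.14 on the low array. Il2rb, a receptor chain for interleukins 2 and 15, had 6.81 on the high array and 12.61 on the low array. The killing genes Gzma, Gzmb and Prf1 had 7.67, 7.61 and 7.33 on the high array, against 12.91, 12.51 and 12.36 on the low array. The chemokine gene Ccl5 had 8.23 on the high array and 13.34 on the low array. Klrc1, Klrc2, Klrd1, Klrk1, Klre1, Klra3, Klra6, Nkg7 and Txk complete the set.

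**Figure D2:**
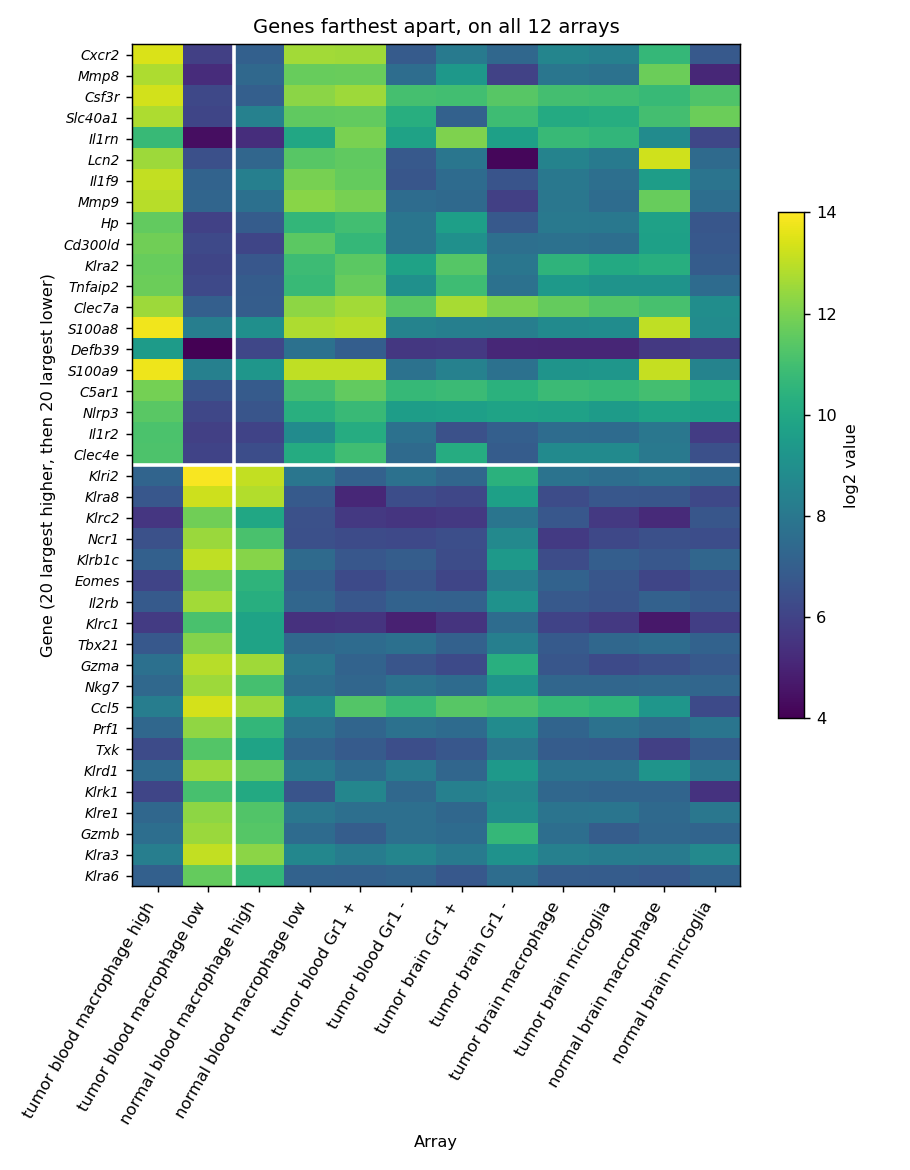
Log2 value (color) of the 20 genes with the largest difference in each direction (rows) on all 12 arrays (columns), with the high and low blood macrophage arrays of tumor-bearing mice on the left of the vertical line. Most of the upper 20 genes are bright on the tumor high, normal low and blood Gr1+ arrays, and most of the lower 20 on the tumor low and normal high arrays.

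The same 40 genes were set beside the other arrays. On the Gr1+ blood array of tumor-bearing mice 19 of the 20 genes higher on the high array were above background, and 1 of the 20 genes higher on the low array. On the Gr1- blood array these counts were 7 and 1. Both Gr1 blood arrays also carried genes of tissue macrophages and microglia. Of 20 such genes, 11 were above background on the Gr1+ and 17 on the Gr1- blood array. On the high and low arrays 3 and 1 of them were. Whether the Gr1 blood arrays hold blood cells alone was not tested. Of the 20 genes higher on the low array, 10 were above background on the tumor brain Gr1- array, where Klri2 had 10.37, Gzma 10.30 and Gzmb 10.65. Defb39 was the exception among the 20 genes of the high array: it had 9.50 there and 7.00 on the Gr1+ blood array.

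Promoter sequences were read for these genes to show what lies before the start of some of them. The 250 bases before the transcription start were taken from RefSeq (GRCm38.p6) for 17 of the 20 genes higher on the high array and 16 of the 20 higher on the low array, with 21 promoters in each set because some genes have several starts. Searched on both strands were GAGGAAGT, a core of sites for the myeloid factor PU.1, TTGCNNAA, a core of sites for C/EBP factors, and AGGTGTGA, a core of sites for T-box factors. GAGGAAGT was in 3 promoters of the high set (14.3%) and 0 of the low set, against 2.44% of 32851 promoters of all genes. TTGCNNAA was in 5 promoters of the high set (23.8%) and 7 of the low set (33.3%), against 9.56% of all. AGGTGTGA was in 0 of the high set and 1 of the low set (4.76%), against 1.12% of all. Klra genes are close copies of each other. Klra3, Klra6 and Klra8 are among the matches of TTGCNNAA in the low set, so their matches are not separate observations. The windows of Csf3r, Cxcr2, Klrb1c and Prf1 hold none of the 3 motifs. The 3 windows below were picked because they hold a match, which is a match of letters and not a measured binding site. Capitals mark it, each strand is that of the gene, and ACTTCCTC is GAGGAAGT read on the opposite strand.
Mmp8, chr9:7558179-7558428, plus strand: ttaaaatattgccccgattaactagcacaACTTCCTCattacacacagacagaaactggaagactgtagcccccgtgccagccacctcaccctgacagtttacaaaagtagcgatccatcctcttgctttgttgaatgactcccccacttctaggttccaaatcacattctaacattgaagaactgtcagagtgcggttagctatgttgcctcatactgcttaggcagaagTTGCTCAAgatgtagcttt
S100a8, chr3:90668821-90669070, plus strand: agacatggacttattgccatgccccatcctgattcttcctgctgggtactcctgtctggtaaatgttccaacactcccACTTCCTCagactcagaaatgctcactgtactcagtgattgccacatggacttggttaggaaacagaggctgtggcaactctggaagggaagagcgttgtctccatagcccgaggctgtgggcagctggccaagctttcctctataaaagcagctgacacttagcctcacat
Nkg7, chr7:43436888-43437137, plus strand: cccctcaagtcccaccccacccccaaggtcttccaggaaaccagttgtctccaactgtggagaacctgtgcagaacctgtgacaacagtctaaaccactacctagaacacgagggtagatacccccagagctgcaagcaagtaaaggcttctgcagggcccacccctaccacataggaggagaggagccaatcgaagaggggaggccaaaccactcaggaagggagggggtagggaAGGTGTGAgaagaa
Counted from the transcription start, Mmp8 has its PU.1 core from position -221 and its C/EBP core from -19, S100a8 its PU.1 core from -172, and Nkg7, a membrane protein of cytotoxic granules, its T-box core from -14. Among the factors themselves, Spi1, which encodes PU.1, had 11.83 on the high array and 8.59 on the low array. Cebpb, of the C/EBP factors, had 12.40 on the high array and 7.75 on the low array. Whether these factors act on the promoters of either set was not tested.

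The neutrophil lists were carried by the high array. Of 18 measured surface receptors of neutrophils, 16 were at least 2-fold higher on the high array and 0 lower, with a median difference of 3.16 against -0.21 over all genes. Their median level was 11.20 on the high array and 7.46 on the low array, and 15 were above background on the high array against 3 on the low array. Clec4d, a lectin receptor that pairs with Clec4e, had 12.91 on the high array and 7.68 on the low array. Pglyrp1, a peptidoglycan-binding granule protein, had 12.84 on the high array and 9.74 on the low array and was above background on both. Ly6g, the gene of the neutrophil-specific part of the Gr1 epitope, was below background on both, with 8.91 on the high array and 6.87 on the low array. Itgb2l and Tnfrsf23 were below background on both as well.

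Granule genes were not uniform. Of 20 measured, 12 were 2-fold higher on the high array and 0 lower, with a median of 10.71 on the high array and 7.63 on the low array. Bright ones were Ngp, a secondary granule protein, at 11.56 and Retnlg, a secreted resistin-like protein, at 11.91 on the high array, against 6.79 and 8.26 on the low array. The primary granule genes of bone marrow precursors, Mpo, Elane, Prtn3 and Ctsg, lay between 7.88 and 8.40 on the high array and between 8.10 and 8.45 on the low array, below background on both. Unlike Ngp and Lcn2, the secondary granule genes Ltf and Camp were also below background on both, at 8.27 and 7.96 on the high array and 5.98 and 7.09 on the low array.

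Monocyte genes were on the same side as neutrophil genes. Of 17 measured classical monocyte genes, all 17 were above background on the high array and 4 on the low array, and 16 were 2-fold higher and 0 lower, with a median difference of 3.81. Lyz2, which encodes lysozyme, had 13.21 on the high array and 8.33 on the low array, and Csf1r, the receptor for macrophage colony-stimulating factor, had 11.90 on the high array and 7.68 on the low array. Vcan, a proteoglycan of classical monocytes, had 10.08 on the high array and 5.17 on the low array. Ccr2, the receptor by which monocytes leave the bone marrow, had 10.96 on the high array and 9.69 on the low array, above background on both and 2.42-fold apart. The Ly6c genes had only probe sets shared between genes and were not measured one by one. Of 15 nonclassical monocyte genes, all 15 were above background on the high array and 6 on the low array, and 11 were 2-fold higher and 0 lower, with a median difference of 3.04. Treml4 and Ace, which mark patrolling monocytes, had 11.39 and 12.13 on the high array, against 7.77 and 7.53 on the low array. Nr4a1, the factor that nonclassical monocytes need, had 13.37 on the high array and 9.65 on the low array, and it is also a member of the immediate early list, with the largest difference there. In a bulk sample, fewer cells of a type and less RNA per cell cannot be told apart.

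Genes shared by myeloid cells were above background on the high array in 23 of 23 cases and on the low array in 9. Of the 23, 19 were 2-fold higher on the high array and 0 lower, with a median difference of 2.58. Cd33, an inhibitory sialic acid receptor, had 13.29 on the high array and 8.17 on the low array. Tyrobp and Fcer1g, signaling adaptors that myeloid and NK cells both use, were above background on both, at 13.38 and 13.01 on the high array and 11.67 and 12.06 on the low array.

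The label macrophage was set against markers of tissue macrophages and microglia. Of 20 measured genes of tissue macrophages and microglia, 3 were above background on the high array and 1 on the low array. The 3 were Adgre1, which encodes an adhesion receptor of mouse macrophages, Cd68 and Apoe, at 10.98, 11.70 and 12.08 on the high array, against 7.70, 8.66 and 10.14 on the low array. Mertk, Trem2, Cd163, Mrc1 and the complement genes C1qa, C1qb and C1qc were below background on both arrays, as were Tmem119, P2ry12 and Sall1 of microglia. The median difference of the list was 0.27, with 6 members 2-fold higher and 0 lower. Of the 6, 3 were above background on at least 1 array. The low array thus held 1 of these 20 genes above background, and the high array, which carried monocyte genes, held 3. The list is one of tissue cells, so it cannot decide the label of a blood sort. Both populations are called here by their label and not as macrophages.

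**Figure D3:**
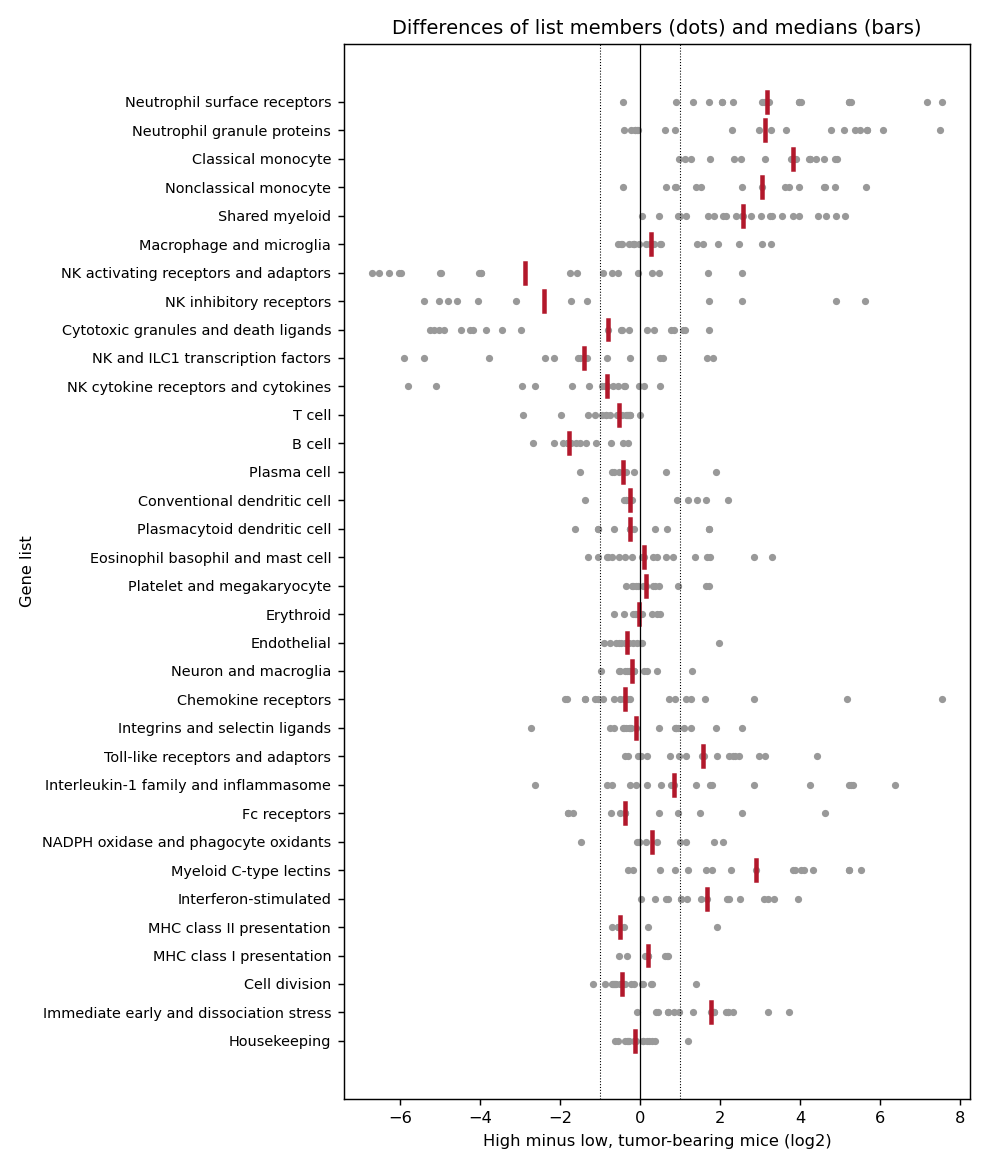
Log2 difference of the blood macrophage high array minus the low array of tumor-bearing mice (horizontal axis) for the measured members of 34 gene lists (dots, 1 row per list), with the list medians as bars and dotted lines at 2-fold. Medians of the 5 neutrophil, monocyte and shared myeloid lists lie between 2.58 and 3.81, those of both NK receptor lists at -2.87 and -2.41, and that of B cell genes at -1.77.

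NK receptors were carried by the low array, with exceptions that myeloid cells also use. Of 20 measured activating receptors and adaptors, 12 were 2-fold lower on the high array and 2 higher, with a median difference of -2.87, and 5 were above background on the high array against 15 on the low array. The 2 that were higher on the high array were Fcgr3, an Fc receptor, and Tyrobp. Klrk1, which encodes NKG2D, had 6.08 on the high array and 11.08 on the low array. Klrb1b, which is in this list although its product inhibits NK cells, had 7.85 on the high array and 11.84 on the low array. Hcst, the adaptor of NKG2D, had 9.44 on the high array and 9.13 on the low array, and Cd244a had 12.35 on the high array and 11.88 on the low array. Of 12 measured inhibitory receptors, 8 were 2-fold lower on the high array and 4 higher, with a median difference of -2.41. Klra3 and Klrd1, receptors for MHC class I molecules, had 8.28 and 7.51 on the high array, against 13.08 and 12.54 on the low array. Klrg1, a receptor for cadherins on mature NK cells, had 6.92 on the high array and 10.97 on the low array. The 4 on the other side were Klra2, Klra17, Lilrb4a and Lair1, with differences of 5.61, 2.55, 4.90 and 1.73, and Klra17 was below background on both. Another 13 listed genes, mostly of the Klra family, had no probe set of their own, and probes of the measured Klra genes may read their close copies too.

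Genes of the killing machinery did not all move. Of 21 genes of cytotoxic granules and death ligands, 10 were 2-fold lower on the high array, 3 were higher and 8 passed 2-fold in neither direction, and 18 were above background on the low array against 8 on the high array. Ctsw, Cst7 and Fasl, a cathepsin, a cystatin and a death ligand of killer cells, had 7.24, 6.94 and 7.30 on the high array, against 11.40, 10.79 and 10.76 on the low array. Serpinb9, an inhibitor of granzyme B, was lower too, at 6.16 on the high array and 10.62 on the low array. Lamp1, Srgn and Stx11, used in granules of many leukocytes, were higher by 1.72, 1.08 and 1.11. Rab27a and Unc13d, which serve granule release, had differences of 0.77 and 0.17, and the granzyme gene Gzmm had 9.15 on the high array and 9.42 on the low array. Gzmc and Gzmk were below background on both.

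Transcription factors and cytokine receptors of NK cells followed the killing genes in part. Of 14 factors, 8 were 2-fold lower on the high array and 2 higher, the 2 being Nfil3 and Zbtb16 with differences of 1.81 and 1.68. Gata3 had 7.12 on the high array and 10.90 on the low array, and Ets1 had 9.81 on the high array and 11.97 on the low array. Of 17 cytokine receptors and cytokines, 6 were lower and 0 higher. The receptor chains Il18r1 and Il12rb2, through which interleukins 18 and 12 activate NK cells, had 7.93 and 8.82 on the high array, against 10.55 and 11.76 on the low array. Ifng was below background on both, at 7.57 on the high array and 8.44 on the low array.

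Many NK receptor genes lie together on chromosome 6, in the natural killer gene complex, and myeloid lectin genes lie among them, whereas Ncr1 is not in it. From Klrb1a to Styk1 the RefSeq annotation has 50 protein-coding genes, of which 37 were measured. Of these, 17 were 2-fold lower on the high array and 8 higher. Among 20 Klr genes 16 were lower and 2 higher, and among 12 Clec genes 0 were lower and 5 higher. Of the 5 higher Clec genes, Clec9a and Clec1a were below background on both arrays, and Clec1b was at least 1.06-fold apart. Klri1 and Klra5 among the lower Klr genes and Klra17 among the higher were below background on both as well. Both kinds alternate along the chromosome: after the Klrb1 genes comes a stretch from Clec12a to Olr1, in which Clec12a had 11.05 on the high array and 7.18 on the low array and Clec7a 12.53 on the high array and 7.03 on the low array. Next follow Klre1, Klrd1, Klrk1, Klrc3, Klrc2 and Klrc1, with differences from -6.28 to -4.49. At the far end Klra2, a Klra gene that myeloid cells use, had 11.69 on the high array and 6.08 on the low array, beside Klra3 at 8.28 on the high array and 13.08 on the low array. The complex held 10 of the 20 genes with the largest differences in favor of the low array and 2 of the 20 in favor of the high array. In another lectin cluster of chromosome 6, from Clec4a1 to Clec4e, 8 of 9 measured genes were 2-fold higher on the high array and 0 lower, and 5 were above background on the high array against 0 on the low array.

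B cell genes were present on both arrays and stronger on the low array. Of 18 measured, all 18 were above background on the low array and 13 on the high array, and 15 were 2-fold lower on the high array and 0 higher. The median level was 9.65 on the high array and 11.20 on the low array, and the differences ran from -2.67 to -0.31. Pax5, the factor that fixes B cell identity, had 11.39 on the high array and 13.17 on the low array, 3.44-fold apart. Ms4a1, which encodes CD20, had 10.16 on the high array and 11.77 on the low array, and Cd79a, of the antigen receptor, had 10.99 on the high array and 12.51 on the low array. On the normal arrays Pax5 had 11.89 on blood macrophage high and 11.21 on blood macrophage low, and on the Gr1+ blood array 9.09. B cell genes therefore move with the NK genes in this comparison, and their part in the other differences was not tested.

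T cell genes were close to background. Of 20 measured, 9 were above background on the low array and 5 on the high array, and 4 were 2-fold lower and 0 higher, with a median difference of -0.54. Cd3e had 9.38 on the high array and 9.91 on the low array, Cd3d and Cd3g were below background on both, and Cd8a had 8.88 on the high array and 9.45 on the low array. The larger differences were those of Lef1, at 8.16 on the high array and 11.08 on the low array, and Cd247, the zeta chain that NK cells also use, at 8.22 on the high array and 10.20 on the low array.

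The cell type lists that follow had medians between -0.44 and 0.15, but some members differed by more than 2-fold. Eosinophil, basophil and mast cell genes had a median difference of 0.09, with 5 of 19 higher and 2 lower. Of the 5, 3 were above background on at least 1 array. Hdc had the largest difference, at 11.79 on the high array and 8.49 on the low array. The eosinophil receptor Ccr3 had 10.68 on the high array and 7.83 on the low array. The mast cell protease Cpa3 went the other way, at 9.80 on the high array and 11.11 on the low array. Of 14 genes of conventional dendritic cells 4 were higher, 2 of them above background on at least 1 array, and 1 was lower. Of 11 genes of plasmacytoid dendritic cells 2 were higher and 3 lower. Platelet genes had 2 of 13 higher and 0 lower, with Pf4 below background on both and Thbs1 at 10.79 on the high array and 9.14 on the low array. Erythroid genes had 0 of 11 past 2-fold, and Alas2, the first enzyme of heme synthesis in red cells, had 12.06 on the high array and 11.64 on the low array. Of 12 endothelial genes 1 was higher and 0 lower. None of 13 genes of neurons and macroglia was above background on either array. The plasma cell list of 8 genes had 1 higher, Xbp1, and 1 lower, Prdm1, and Jchain was below background on both. The medians of the erythroid and the neuron and macroglia lists, -0.04 and -0.20 as deposited, changed sign with the scaling.

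Many genes of innate immunity were higher on the high array. Of 18 Toll-like receptors and adaptors, 11 were 2-fold higher and 0 lower, with a median difference of 1.57, or 0.44 with values raised to background, since 5 were above it on the low array. Tlr13, which senses bacterial ribosomal RNA, had 11.23 on the high array and 6.82 on the low array, and Tlr4, the endotoxin receptor, had 9.83 on the high array and 7.37 on the low array. Tlr9, which B cells also use, was alike, at 10.43 on the high array and 10.25 on the low array. Of 19 genes of the interleukin-1 family and the inflammasome, 9 were higher and 1 lower, with a median difference of 0.84. Il1b had 13.11 on the high array and 7.90 on the low array, whereas the adaptor Pycard had 10.69 on the high array and 10.51 on the low array. The 1 that was lower was Il18r1. Of 17 myeloid C-type lectins 13 were higher and 0 lower, with a median of 2.90 that became -0.18 when values below background were raised to it, since 7 members were below background on both arrays.

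Interferon-stimulated genes were higher in 13 of 17 cases and lower in 0. Of the 13, 11 were above background on at least 1 array. The median difference was 1.66, or 0.69 with values raised to background, since 2 were above it on the low array. Oasl2 had 11.43 on the high array and 7.48 on the low array, and Irf7, the factor that amplifies interferon production, had 10.90 on the high array and 8.72 on the low array. Immediate early genes, which also answer to cell handling, were higher in 10 of 17 cases and lower in 0. Of the 10, 8 were above background on at least 1 array. The median difference was 1.77, or 0.98 with values raised to background. Dusp1 had 13.83 on the high array and 10.62 on the low array, and Egr1 had 11.63 on the high array and 9.32 on the low array, both genes being above background on both. The part of cell handling in the other lists was not tested.

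Receptors for migration and for antibodies had members on either side. Of 21 chemokine and related receptors 6 were 2-fold higher on the high array, 6 lower and 9 neither. Ccr1 had 11.11 on the high array and 5.95 on the low array, and Cxcr4, which holds cells in the bone marrow, had 13.29 on the high array and 12.14 on the low array. Lower on the high array were S1pr1 at 9.28 and Cmklr1 at 8.59, against 11.17 and 10.43 on the low array. Of 19 integrins and selectin ligands 4 were higher and 1 lower, the 1 being Itga2, the integrin CD49b that marks NK cells, at 8.85 on the high array and 11.57 on the low array. Of 12 Fc receptor genes 3 were higher and 3 lower. Fcgr4 had 12.29 on the high array and 7.67 on the low array, whereas the B cell receptor Fcer2a had 8.88 on the high array and 10.67 on the low array. Of 10 genes of the NADPH oxidase and of oxidant handling 3 were higher and 1 lower, with Cybb, the catalytic subunit, at 13.43 on the high array and 11.35 on the low array.

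Antigen presentation and housekeeping differed little. Of 7 genes of MHC class II presentation 1 was 2-fold higher and 0 lower, and H2-Aa had 11.69 on the high array and 12.26 on the low array. Of 8 genes of MHC class I presentation 0 passed 2-fold, with B2m at 14.10 on the high array and 13.90 on the low array. Of 17 genes of cell division 3 were above background on the high array and 2 on the low array, with a median difference of -0.45. The 1 gene that was 2-fold higher was Mki67, at 9.56 on the high array and 8.17 on the low array. The 1 that was 2-fold lower was Top2a, with a difference of -1.17 and below background on both. Among 16 housekeeping genes, all above background on both arrays, Pgk1 alone passed 2-fold, with 12.47 on the high array and 11.26 on the low array. Their median difference was -0.12, and it changed sign with the scaling, as did that of the integrin list, -0.09.

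In normal mice the labels high and low went with the opposite myeloid and NK programs. The B cell list differed little there, with a median difference of 0.44 against 0.39 over all genes. Of its 18 measured members 3 were 2-fold higher on the normal high array and 0 lower. Above background were 12 on the normal high and 13 on the normal low array. Csf3r had 7.04 on normal blood macrophage high and 12.25 on normal blood macrophage low, and Cxcr2 had 7.05 on the normal high array and 12.62 on the normal low array. Klra8 had 12.83 on normal high and 6.83 on normal low, and Ncr1 had 11.12 on the normal high array and 6.45 on the normal low array. Ccr2 had 8.93 on normal high and 10.77 on normal low. The difference high minus low was thus 7.17 in tumor-bearing and -5.21 in normal mice for Csf3r, and -6.53 in tumor-bearing and 6.00 in normal mice for Klra8. Of the 20 genes highest in favor of the tumor high array, 18 were above background on the normal low array and 0 on the normal high array. Of the 20 in favor of the tumor low array, 15 were above background on the normal high array and 0 on the normal low array.

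The opposite direction held beyond these genes. Of the 1106 genes at least 2-fold higher on the tumor high than on the tumor low array, 907 (82%) were 2-fold lower on the normal high than on the normal low array and 0 were 2-fold higher. Over all genes, 2365 (11.9%) were 2-fold lower on the normal high array and 871 (4.37%) higher, which became 3045 lower and 352 higher after centring, and 3223 lower and 465 higher after quantile normalization, and among the 5440 above background on a normal blood macrophage array 1728 (31.8%) were lower and 96 (1.76%) higher. Of the 477 genes that were 2-fold lower on the tumor high array, 105 (22%) were 2-fold higher on the normal high array and 1 was lower. Over all 19938 genes the tumor and the normal difference were related with r = -0.647 (Pearson) and rho = -0.442 (Spearman), a description across genes, which are not independent. The comparisons share no array, and the normal high array is the one with 11.2% of genes above background, so that its low values carry little information. All 4 arrays are single, so it was not tested whether tumor-bearing and normal mice differ here, and a tumor effect, a difference between sorts and a mixed-up label cannot be told apart. For that reason no tumor minus normal difference is given for arrays with the same label.

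**Figure D4:**
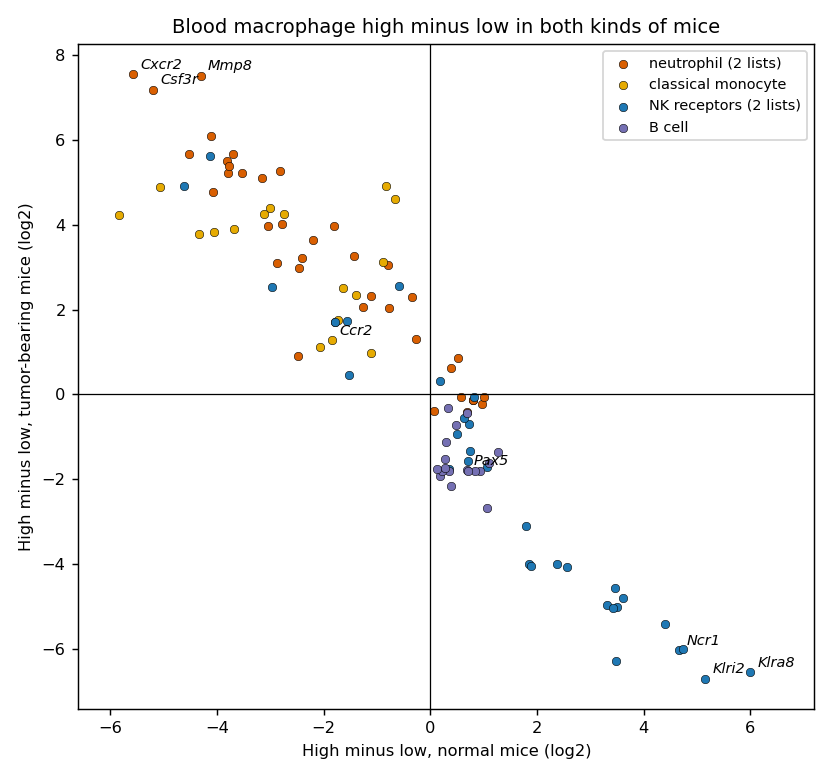
Log2 difference of blood macrophage high minus low in tumor-bearing mice (vertical axis) and in normal mice (horizontal axis) for members of 6 marker lists (points, 1 array per condition). Most neutrophil and classical monocyte genes lie in the upper left, with Cxcr2 at 7.54 and -5.57, and most NK receptor genes in the lower right, with Klra8 at -6.53 and 6.00.

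Over all genes, the tumor high array was closest to the normal low array, with a Pearson's r of 0.915, followed by the Gr1+ blood array with 0.889 and the tumor brain Gr1+ array with 0.868. Its r with the tumor low array was 0.804 and with the normal high array 0.519. The tumor low array had an r of 0.832 with the normal low array and 0.732 with the normal high array. Over genes above background on at least 1 of each pair, the tumor low array had a Pearson's r of 0.445 with the normal high array. With the normal low array it had 0.437 and with the tumor high array 0.398. Spearman's rho over the same genes ordered these arrays otherwise, at 0.271 for normal high, 0.484 for normal low and 0.444 for tumor high. These values are across genes, and arrays of the series share probe effects and processing.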

How the data were processed

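Sorted cells were lysed for total RNA, which was amplified in a second cycle because it was scarce, and hybridized to Affymetrix Mouse Gene ST arrays. The deposited values are log2 signals that the authors computed from the arrays in Expression Console, and the submitters' processing notes name RMA without a version. Unlogged, the smallest value is 1 and neighboring values lie 0.01 apart. The upper quartile of an array was between 9.40 and 9.73. Genome build, scan dates and the annotation release are not given in the sources used here. Groups were taken from the sample titles.

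Of 28944 probe sets, 21789 carried 1 gene symbol, 1621 several and 5534 none, and only the first were used. The entrez identifiers of 21698 were in the RefSeq table. For 999 genes with several probe sets the brightest over all arrays was kept, which gave 19938 genes. Values were not rescaled. Differences are high minus low, and genes past 2-fold (a log2 difference of 1) were counted. Background was the level under which 95% of 1027 olfactory receptor genes lay, and bounds were set against it. The precision is limited by the number of arrays, 1 per condition, for which no test exists.

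Named were the 4 marker genes Csf3r, Klra8, Ncr1 and Ccr2, the 20 genes with the largest difference in each direction whose brighter array was above background, and members of 34 lists with 492 different measured genes. The comparison, the lists and the rule were chosen with earlier results of these data known. A gene of the study is not reported here.

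As alternatives, arrays were centred on their medians or normalized by quantiles or cyclic loess, and other settings were mean probe sets, values raised to background, other fold thresholds, other percentiles for background and only genes above background. The scripts were tested on simulated data. Python 3.11.15, numpy 2.4.6, pandas 2.3.3, R 4.3.3 and limma 3.58.1 were used.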

Additional observations from a re-analysis of the deposited data

Results flagged for a closer look

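The following median log2 differences of blood macrophage high minus low had opposite signs in tumor-bearing and in normal mice. Each rests on 1 array per condition, and the difference between tumor-bearing and normal mice was not tested. Neutrophil surface receptors had 3.16 in tumor-bearing and -2.45 in normal mice, and neutrophil granule proteins had 3.12 and -1.82. Classical monocyte genes had 3.81 in tumor-bearing and -2.06 in normal mice, nonclassical monocyte genes 3.04 and -3.66, and shared myeloid genes 2.58 and -2.59. Activating receptors and adaptors of NK cells had -2.87 in tumor-bearing and 1.33 in normal mice, and inhibitory receptors -2.41 and 1.43. Toll-like receptors and adaptors had 1.57 in tumor-bearing and -1.42 in normal mice, and myeloid C-type lectins 2.90 and -1.29. Interferon-stimulated genes had 1.66 in tumor-bearing and -1.30 in normal mice, and immediate early genes 1.77 and -1.10. The median of all genes was -0.21 in tumor-bearing and 0.39 in normal mice, and background was 10.09 on the normal high array against 9.41 on the normal low array.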

How the results depend on the processing

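The differences of Ccr2 and of the 40 genes with the largest ones, and the medians of all 34 lists, moved by less than the scatter of olfactory receptor genes under centring, quantile and loess normalization and mean probe sets. That scatter, an SD of 0.54, includes olfactory receptor genes with differences of -6.35, -5.53 and -4.61. Some list members near 2-fold changed their call with the scaling. Srgn went from 1.08 to 0.90 after quantile normalization, and Cx3cr1 from 0.87 to 1.04 after centring. Counts of list members past 2-fold therefore depend on the scaling. The count of genes 2-fold lower on the high array became 642 after quantile and 651 after loess normalization. With values raised to background 714 genes were higher and 297 lower, at 1.5-fold 2317 and 3438, at 4-fold 521 and 201, and among genes above background 477 were lower. In normal mice the genes 2-fold higher numbered 352 after centring and 465 after quantile normalization. With values raised to background the median differences were 1.70 for neutrophil surface receptors, 1.46 for granule proteins, 1.75 for classical and 1.97 for nonclassical monocytes, -1.50 for activating and -0.53 for inhibitory NK receptors and -0.18 for C-type lectins, which changed sign. With only members above background they were 3.96 for neutrophil surface receptors, 5.23 for granule proteins, and -3.99 and -3.58 for activating and inhibitory NK receptors. With the 99th percentile as background 20.7% of genes lay above it on the high and 14% on the low array. Raising values to background also moved 40 of those 41 genes, with no change of direction. Over genes above background, Pearson's r of the tumor high array was 0.837 with the normal low, 0.721 with the Gr1+ blood and 0.398 with the tumor low array, and that of the tumor low array 0.445 with the normal high and 0.437 with the normal low array. These moves follow from the alternatives' own construction, fewer genes or floored values, except those of the normalizations, whose cause was not tested. No paired analysis was possible because each condition has 1 array and the labels carry no replicate numbers. Signal near background limits all values of genes seen on 1 array.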

Other observations

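A few olfactory receptor genes had values near the lowest of the scale on the high array. Olfr1454 had 0.10 on the high array and 6.45 on the low array, Olfr151 had 0.04 and 5.58, and Olfr1084 had 0.03 and 4.64. All 3 were below background on both arrays, so differences of this size, -6.35 for Olfr1454, also arise where neither array carries signal. The lowest value itself was held by 16 probe sets on the high array and 3 on the low array.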
